A study of Homo sapiens with 32 samples.

Results

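Sterol and fatty acid synthesis genes were followed over time in the human liver tumor line HepG2, with and without exposure to silver nanoparticles. The set held 32 genes, chosen by name as genes under the control of the sterol regulatory element-binding proteins, of 13133 genes in the table, and all 32 had a row. They were described as a sterol branch of 22 genes and a fatty acid branch of 10 genes. Control cells, called NoNP, received medium only. Exposed cells received silver nanoparticles at 1.2 ug/mL. Their coating was bPEI, a branched polyethylenimine, PEG, which is polyethylene glycol, or citrate. Cells were lysed 6, 12 and 24 h later and read by TempO-Seq, a targeted assay in which adjoining probes on a transcript are ligated and the joined products are sequenced and counted. The 32 libraries formed 12 groups of exposure and time. NoNP had 3, 3 and 2 libraries at 6, 12 and 24 h, and bPEI had 3, 3 and 2. PEG had 2, 3 and 3 libraries at these times, and citrate had 2, 3 and 3. All groups share this 1 line, and no library of a coating without silver was analysed here. Whether replicates were separate cultures is not in the labels. The p-values therefore reflect the spread among these libraries alone, which may be technical.

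Cholesterol is built from acetyl-CoA through mevalonate, squalene and lanosterol, and fatty acids are built from the same acetyl-CoA through malonyl-CoA. Both routes are driven by transcription factors that are made as membrane-bound precursors, encoded by SREBF1 and SREBF2. When sterols in the endoplasmic reticulum are low, the escort protein SCAP carries the precursor to the Golgi, where it is cut and its active part goes to the nucleus. When sterols are plentiful, INSIG proteins hold SCAP back. In liver cells the SREBF2 product acts mainly on the sterol genes and the SREBF1 product mainly on the fatty acid genes.

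Values are normalized reads, the whole reads of a gene divided by 1 size factor per library, and each gene is read by its own probes, so levels were compared between libraries and not between genes. Depth ran from 1313855 to 6735072 reads per library with a median of 3373855, and a gene at 0 in 1 library could hold up to 1.38 to 7.15 normalized reads, for counting error only. The 8 hepatocyte markers were read in all libraries, with ALB, the serum albumin gene, at 89911 to 268230. Of 8 genes listed as markers of other cells, PTPRC and DCN had no row, and COL1A1, COL3A1 and KRT7 had means of 2.26, 0.472 and 2.43. PECAM1 had 9.72, and CD68 and EPCAM had 94.6 and 4279. EPCAM was read in all 32 libraries of this 1 line, so it did not set other cells apart here. A gene was tested when its mean over all libraries was at least 5, and 9324 genes were. "Called" means an adjusted p under 0.05 from limma with Benjamini-Hochberg adjustment over the 9324 genes, and differences are on the log2(value + 1) scale, which understates changes of low genes. Lysates are bulk samples, so a change in every cell and a change in a share of the cells cannot be told apart. A pair of libraries was taken to stand apart from the others of their group: replicate B of bPEI at 6 h and replicate B of NoNP at 24 h. With 2 libraries in the 24 h NoNP group, the spread within it cannot show which of them is the outlying one. The residual variance of the 24 h NoNP group was 2.70 times that pooled over all groups, and that of bPEI at 6 h was 1.37 times. The other groups stood at 0.43 to 1.33. The 24 h NoNP libraries held 2015520 and 1420319 reads.

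Of the 32 genes, 26 were tested, 19 of the sterol branch and 7 of the fatty acid branch. The other 6 had means under 5 and were described only by their reads. HMGCS1, which makes HMG-CoA, had a mean of 2.12 and a read in 15 of 32 libraries. PMVK, the second mevalonate pathway kinase, had a mean of 1.10 and a read in 8 libraries. INSIG1, which retains SCAP, had a mean of 2.24 with a read in 11 libraries, and its highest value, 30.4, was in NoNP replicate B of 24 h. ACACA, which makes malonyl-CoA, had a mean of 3.50 and a read in 18 libraries. ELOVL6, an elongase, had a mean of 0.990 and a read in 6 libraries, and it was listed at 0 in all 10 libraries of 6 h. SREBF1 had a mean of 4.56 and a read in 24 libraries, with its highest values of 22.9 and 18.8 in bPEI replicates A and B at 6 h. None of these 6 genes was tested.

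More of these genes were called in the time comparisons averaged over exposures than in any comparison of exposures, which was also so for all tested genes. Within single exposures this did not always hold. In NoNP cells 4 were called at 12 h against 6 h, and in PEG cells 5 at 24 h against 6 h. The comparison of bPEI with NoNP at 24 h called 5. No comparison with NoNP called over 3.88% of all tested genes in 1 direction. The time comparisons averaged over exposures also used more libraries than the comparisons with NoNP. Averaged over the 4 exposures, 11 of the 19 tested sterol genes were called lower at 24 h than at 6 h and none higher, beside 20.4% of all tested genes called lower and 18.7% called higher. The median difference was -0.83 for the sterol branch and -0.03 for all tested genes. In the fatty acid branch, 2 of 7 tested genes were called lower and none higher, with a median of -0.63. Without the pair of libraries that stood apart, 11 sterol genes and 3 fatty acid genes were called, 1 of the sterol genes higher.

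Markers of the cell type moved over the same interval. Of the 8 hepatocyte markers, 5 were called lower at 24 h than at 6 h and none higher, with a median difference of -0.66. They were FGB, a fibrinogen chain gene, at -2.36, TF, the transferrin gene, at -1.44, ALB at -0.80, and the apolipoprotein genes APOA1 and APOB at -0.71 and -0.61. The summed level of the 8 ran from 265704 to 396264 in the libraries of 6 h and from 158814 to 267924 in those of 24 h. Of the 3 tested genes listed as markers of other cells, CD68 and EPCAM were called higher, at 0.53 and 0.39. The summed level of the 6 with a row ran from 1087 to 5193 at 6 h and from 3992 to 5893 at 24 h. EPCAM, with a mean of 4279, made up most of that sum, so the sum does not gauge other cells. The lowest sum, 1087, was that of 1 bPEI library of 6 h, in a group with a median of 4215. Within single exposures, 5 hepatocyte markers were called lower in NoNP cells and 3 in each of bPEI, PEG and citrate cells, with none higher. The part of these shifts in the course of the lipid genes was not tested.

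The steps between times were then taken one by one, without a test of one step against the other. From 6 to 12 h, averaged over exposures, the sterol branch split: 4 genes were called higher and 6 lower, beside 22.2% of all tested genes called higher and 21.3% lower. The share of this branch called in that step was therefore near that of all genes, and the step is described gene by gene. From 12 to 24 h, 10 sterol genes were called lower and none higher, beside 20% and 18.4% of all tested genes. The median of the branch was -0.35 in the former step and -0.70 in the latter, with 0.03 and -0.06 for all tested genes. In the fatty acid branch 2 genes were called lower from 6 to 12 h, and 2 lower and 1 higher from 12 to 24 h, with medians of -0.44 and 0.03. The steps share the 12 h libraries, so a high 12 h value enters both with opposite sign.

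**Figure D1:**
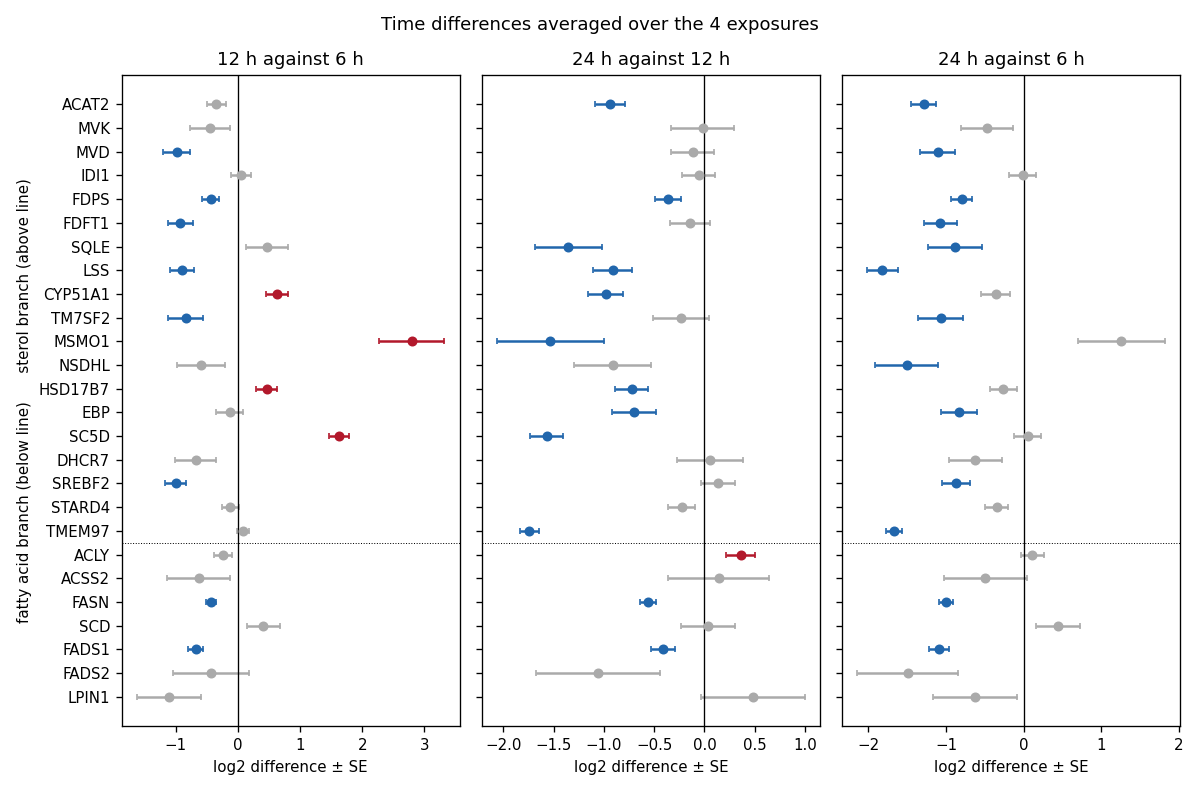
Log2 difference ± SE (horizontal axis) of each of the 26 tested genes (vertical axis) between time points, averaged over the 4 exposures. Red points were called higher, blue points lower and grey points not called, and the dotted line splits the sterol branch (above) from the fatty acid branch (below); MSMO1 and SC5D lie far to the right from 6 to 12 h and to the left from 12 to 24 h, and all called genes lie to the left from 6 to 24 h.

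Promoter letters are shown for SREBF2, which encodes the factor itself, and for 3 genes with contrasting courses: TMEM97, which held until 12 h and then fell, and SC5D and MSMO1, which peaked at 12 h. Sequences are those of RefSeq on GRCh38.p14. The window held 250 bases before to 50 after the annotated start, 28 of the 32 genes had one, and ACAT2, FDFT1, SQLE and FASN did not. Each motif was searched on both strands, and no motif's letters contain those of another. The core of the sterol regulatory element, searched as TCACNCCAC, was found in the SREBF2 promoter and in none of the others, 3.57% of the 28, beside 1.15% of the promoters of the tested genes. The CCAAT box, searched as CCAAT and bound by the factor NF-Y, was found in 16 of 19 sterol branch promoters (84.2%) and in 3 of 9 fatty acid branch promoters (33.3%), beside 37.4% of the 7284 promoters of tested genes and 35.7% of all 27305. The GC box, searched as GGGCGG and bound by the factor Sp1, was in 26 of 28 (92.9%) beside 70.2% of the tested genes' promoters, and the E-box, searched as CACGTG, in 3 of 28 (10.7%) beside 10.5%. These matches are descriptions of letters and not of bound sites, and a missing match says only that the letters are not in the window. The 250 bases before the start follow, on the plus strand, with the sterol element core and the CCAAT boxes of either strand in capitals. SREBF2 was shown because it was called between 6 and 24 h and held the sterol element core. The other 3 were chosen after their matches were seen. The windows are SREBF2 at chr22:41832855-41833104, TMEM97 at chr17:28318950-28319199, SC5D at chr11:121292521-121292770 and MSMO1 at chr4:165327419-165327668.
SREBF2: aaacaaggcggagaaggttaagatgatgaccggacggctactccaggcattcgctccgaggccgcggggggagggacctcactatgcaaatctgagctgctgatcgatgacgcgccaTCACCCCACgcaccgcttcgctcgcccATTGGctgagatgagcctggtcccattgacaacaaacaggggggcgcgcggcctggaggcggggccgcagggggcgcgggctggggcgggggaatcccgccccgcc
TMEM97: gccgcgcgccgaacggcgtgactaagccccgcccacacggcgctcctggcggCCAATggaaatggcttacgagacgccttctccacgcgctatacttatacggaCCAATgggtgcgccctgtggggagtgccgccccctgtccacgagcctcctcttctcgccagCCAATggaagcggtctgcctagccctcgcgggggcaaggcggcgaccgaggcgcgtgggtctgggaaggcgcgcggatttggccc
SC5D: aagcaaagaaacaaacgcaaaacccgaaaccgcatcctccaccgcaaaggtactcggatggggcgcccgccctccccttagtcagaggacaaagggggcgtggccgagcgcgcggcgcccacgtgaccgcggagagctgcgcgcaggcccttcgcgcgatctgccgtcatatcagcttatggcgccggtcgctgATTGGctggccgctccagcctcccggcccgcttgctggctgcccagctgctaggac
MSMO1: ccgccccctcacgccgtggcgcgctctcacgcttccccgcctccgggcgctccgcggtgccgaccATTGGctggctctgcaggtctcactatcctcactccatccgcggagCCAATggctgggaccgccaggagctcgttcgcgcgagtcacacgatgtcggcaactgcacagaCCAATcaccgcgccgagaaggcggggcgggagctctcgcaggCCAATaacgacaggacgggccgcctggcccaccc
In SREBF2 the sterol element core lay 133 to 125 bases before the start, with 1 CCAAT box read on the other strand at 106 to 102. TMEM97 held 3 CCAAT boxes, at 198 to 194, 146 to 142 and 85 to 81 bases before the start, SC5D held 1, at 56 to 52, and MSMO1 held 4, of which the nearest lay 34 to 30 bases before the start.

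SREBF2, the regulator of the branch, was called lower between 6 and 12 h and not between 12 and 24 h. It was read at 122 to 284 (median 202) in the 10 libraries of 6 h, at 60.9 to 182 (median 93.8) in the 12 of 12 h and at 59.4 to 176 (median 113) in the 10 of 24 h. The difference from 6 to 12 h was -1.004 (SE 0.17, adjusted p = 1.27e-05), and from 12 to 24 h it was 0.13 (SE 0.17, adjusted p = 0.562). At 12 h the NoNP libraries read 60.9, 73.5 and 88.4 and the citrate libraries 96.6, 142 and 182, with no overlap between these groups. That difference, 0.88, was not called (adjusted p = 0.0935).

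Among sterol transport genes, TMEM97 had the smallest p of all 26 tested genes in 2 of the 3 averaged steps. TMEM97 encodes a sterol-binding membrane protein, also known as a sigma receptor, that lowers the level of the lysosomal cholesterol exporter NPC1. It was read at 544 to 853 (median 664) at 6 h, 541 to 880.2 (median 757) at 12 h and 114 to 396 (median 192) at 24 h. Every one of the 10 libraries of 24 h lay below every one of the 22 earlier libraries. The difference was 0.07 (SE 0.10, adjusted p = 0.557) from 6 to 12 h and -1.74 (SE 0.10, adjusted p = 3.24e-15) from 12 to 24 h, a fold of 3.35. STARD4, a carrier of cholesterol between membranes, was read at 138 to 275 at 6 h and 106 to 256 at 24 h and was not called from 6 to 24 h, with a difference of -0.35 (SE 0.14, adjusted p = 0.0520).

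In the upper pathway, from acetyl-CoA to farnesyl diphosphate, ACAT2, MVD and FDPS were called lower at 24 h than at 6 h. IDI1 and MVK were not called, and HMGCS1 and PMVK were not tested. ACAT2, the thiolase that joins the opening pair of acetyl-CoA units, was read at 280.3 to 569 (median 461), 232 to 427 (median 352) and 50.02 to 300.4 (median 182) at 6, 12 and 24 h. Its difference from 6 to 24 h was -1.29 (SE 0.16, adjusted p = 7.24e-08), and most of it fell in the later step, at -0.94 (SE 0.15, adjusted p = 9.09e-06). MVD, the mevalonate diphosphate decarboxylase, fell in the earlier step instead, by 0.99 (SE 0.22, adjusted p = 0.000401), from 58.2 to 128 (median 75.9) at 6 h to 18.5 to 61.6 (median 44.1) at 12 h. FDPS, which makes farnesyl diphosphate, was read at 183 to 325 at 6 h and 113 to 167 at 24 h, with no overlap, and its difference was -0.80 (SE 0.14, adjusted p = 1.66e-05). IDI1, the isomerase between these enzymes, was not called in any averaged step; its libraries spanned 140.1 to 490.3 at 6 h, 231 to 499 at 12 h and 144 to 510.1 at 24 h. MVK, the mevalonate kinase, was not called either, with 11.9 to 47.2 at 6 h and 9.63 to 29.4 at 24 h.

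The 3 enzymes that make and close squalene were each called lower in at least 1 step, and the steps were not tested against each other. FDFT1, the squalene synthase, was read at 54.7 to 119.7 (median 87.1) at 6 h and 28.3 to 77.0 (median 48.0) at 12 h, a difference of -0.93 (SE 0.20, adjusted p = 0.000347), and then did not change by the test, at 22.4 to 71.0 at 24 h. SQLE, the squalene epoxidase and a flux-controlling step, was read at 46.1 to 199 (median 115), 81.7 to 239.8 (median 175) and 2.17 to 144 (median 81.5). From 6 to 12 h it differed by 0.47 and was not called (adjusted p = 0.268). Without the pair of libraries that stood apart it differed by 0.38 in that step and was called higher. It was called lower from 12 to 24 h, at -1.35 (SE 0.33, adjusted p = 0.00228). From 6 to 24 h its call stood at the threshold, at -0.89 (SE 0.35, adjusted p = 0.0480), it held in 6 of 28 alternative analyses, and edgeR did not make it (adjusted p = 0.0610). LSS, the lanosterol synthase, fell in both steps, by 0.91 (SE 0.19) and by 0.91 (SE 0.19). Its libraries read 80.1 to 210.1 (median 136) at 6 h, 46.6 to 116 (median 78.7) at 12 h and 13.05 to 68.7 (median 43.9) at 24 h, and those of 6 and 24 h did not overlap. Over the whole interval LSS differed by -1.82 (SE 0.20, adjusted p = 6.83e-09), a fold of 3.53, the largest called difference among the members in that comparison.

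With all libraries, the enzymes past lanosterol held the genes called higher from 6 to 12 h and then lower from 12 to 24 h. SQLE, before lanosterol, also had its highest median at 12 h. Its rise was called without the pair of libraries that stood apart and not with all libraries, so this split depended on the libraries kept. SC5D, a sterol desaturase near the end of the route, was read at 140.1 to 485 (median 214) at 6 h, 336 to 1142 (median 750.0) at 12 h and 119 to 525 (median 197) at 24 h. It rose by 1.62 (SE 0.16, adjusted p = 1.72e-09) and then changed by -1.57 (SE 0.16, adjusted p = 2.92e-09), and 24 h against 6 h was 0.05 and not called (adjusted p = 0.830). MSMO1, the oxidase that starts removal of the methyl groups of lanosterol, was read at 3.42 to 321 (median 133), 316 to 1272 (median 779) and 17.4 to 643 (median 243). It rose from 6 to 12 h by 2.79 (SE 0.53, adjusted p = 0.000233) and then changed by -1.53 (SE 0.53, adjusted p = 0.0271). The latter call was lost without NoNP replicate B or without bPEI replicate A of 24 h. For MSMO1, 24 h against 6 h was 1.26 and not called by limma (adjusted p = 0.0795), and it was 1.53 without the pair of libraries that stood apart. CYP51A1, the lanosterol demethylase, rose by 0.62 (SE 0.17, adjusted p = 0.00465) and then fell, at -0.98 (SE 0.17, adjusted p = 4.06e-05). HSD17B7, a ketoreductase of the same stretch, was read at 58.4 to 103 at 6 h, 61.2 to 149 at 12 h and 37.9 to 89.2 at 24 h, with differences of 0.46 (SE 0.17, adjusted p = 0.0240) and -0.72 (SE 0.17, adjusted p = 0.000822). Its earlier call was lost without PEG replicate C or without citrate replicate C of 6 h.

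The other late enzymes had no such peak. TM7SF2, a sterol reductase, fell from 6 to 12 h by 0.84 (SE 0.28, adjusted p = 0.0146), a call lost without citrate replicate A of 6 h. EBP, a sterol isomerase, fell from 12 to 24 h by 0.70 (SE 0.22, adjusted p = 0.0105), with 71.6 to 180.3 at 12 h and 34.8 to 171 at 24 h. NSDHL, the dehydrogenase that works with MSMO1, was called only over the whole interval, at -1.51 (SE 0.40, adjusted p = 0.00335); it was low, at 19.2 to 56.5 (median 30.5) at 6 h and 0 to 20.9 (median 13.2) at 24 h. DHCR7, the reductase of the last step, was not called in any averaged step, at 10.8 to 51.3 at 6 h and 6.24 to 25.1 at 24 h.

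**Figure D2:**
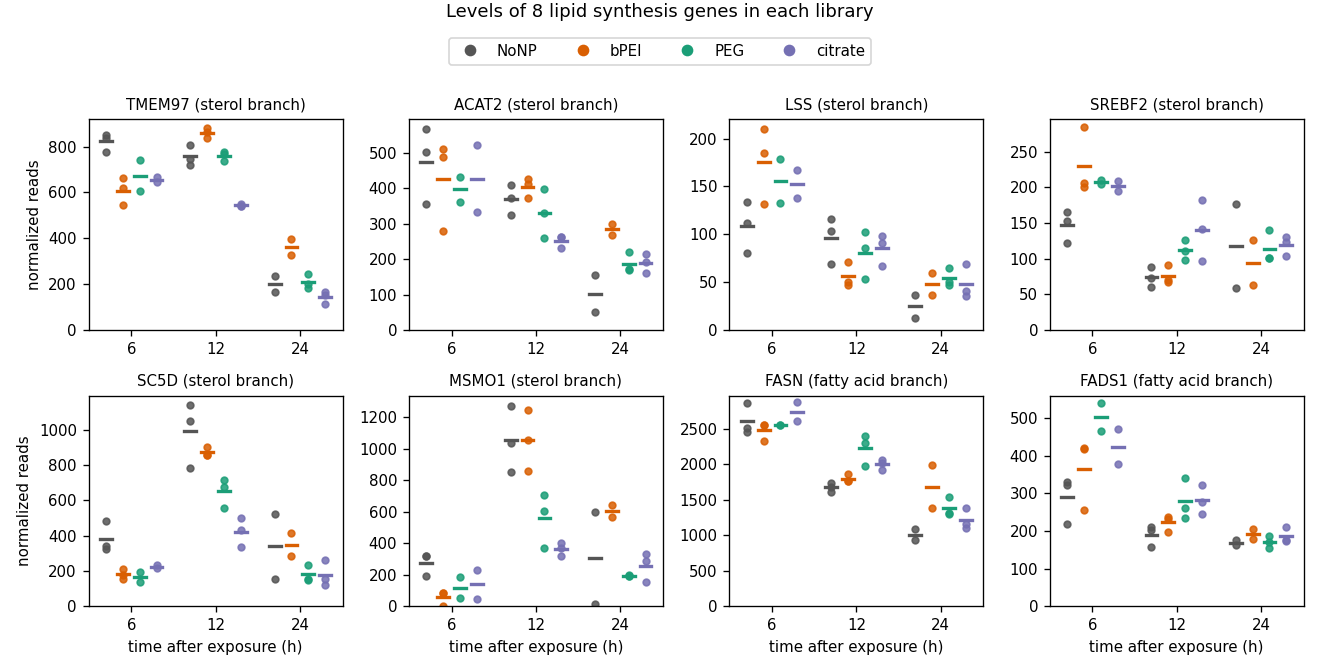
Normalized reads (vertical axes, from 0) of 8 genes in each library at 6, 12 and 24 h (horizontal axes), colored by exposure, with a bar at each group mean. TMEM97 sits between 541 and 880 at 12 h and between 114 and 396 at 24 h, SC5D and MSMO1 are highest at 12 h, and FASN and FADS1 at 24 h lie below all libraries of 6 h.

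In the fatty acid branch, FASN and FADS1 fell in both steps. FASN, the fatty acid synthase, was read at 2324 to 2867 (median 2549.9) at 6 h, 1601 to 2389.7 (median 1893) at 12 h and 929 to 1988 (median 1306) at 24 h. Its difference over the whole interval was -1.002 (SE 0.09, adjusted p = 2.01e-11), made up of -0.44 (SE 0.08) and -0.56 (SE 0.08). FADS1, a desaturase of polyunsaturated fatty acids, was read at 219.8 to 541 (median 399), 159 to 341 (median 237) and 154 to 210.2 (median 177), with -1.09 (SE 0.13, adjusted p = 1.62e-08) over the whole interval. All 10 libraries of 24 h lay below all 10 of 6 h for both genes. The early fall of FADS1, at -0.68 (adjusted p = 2.63e-05), was larger than its later fall, at -0.41 (adjusted p = 0.00676), although the difference between the steps was not tested.

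The remaining tested fatty acid genes were not called lower in any averaged step with all libraries. ACLY, the citrate lyase that supplies cytosolic acetyl-CoA to both branches, was called higher from 12 to 24 h, at 0.36 (SE 0.14, adjusted p = 0.0461), from 73.1 to 153 (median 123) to 92.2 to 228 (median 149), and that call held in 15 of 30 alternative analyses, the lost ones including several that left out 1 library. SCD, the desaturase that makes oleate, was read at 7.42 to 56.2 at 6 h, 13.2 to 62.3 at 12 h and 12.2 to 69.0 at 24 h and was not called in any averaged step. ACSS2, which makes acetyl-CoA from acetate, spanned 0 to 27.3 over the 32 libraries, FADS2, a second desaturase, 0 to 18.8, and LPIN1, a phosphatidate phosphatase, 0 to 19.3. None of these 3 was called in any averaged step, and their differences over the whole interval were -0.49 (SE 0.53), -1.49 (SE 0.65) and -0.63 (SE 0.54). FADS2 differed downward in all 4 exposures, and ACSS2 and LPIN1 in 3 of 4. Without the pair of libraries that stood apart the FADS2 difference was -1.81. With such SE, a missing call does not show that these genes took another course than FASN and FADS1.

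The branches could be read library by library as medians of log2 values centered on the mean over the 32 libraries. At 6 h the sterol median lay between 0.18 and 0.64 in the 10 libraries, and at 12 h between -0.08 and 0.48 in the 12 libraries. At 24 h it lay between -0.87 and -0.37 in the NoNP, PEG and citrate libraries, while bPEI replicates A and B stood at 0.27 and -0.10. The fatty acid median lay between 0.12 and 0.74 at 6 h, and between -0.67 and 0.13 at 24 h. The median over all tested genes stayed between 0.01 and 0.11 in every library.

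**Figure D3:**
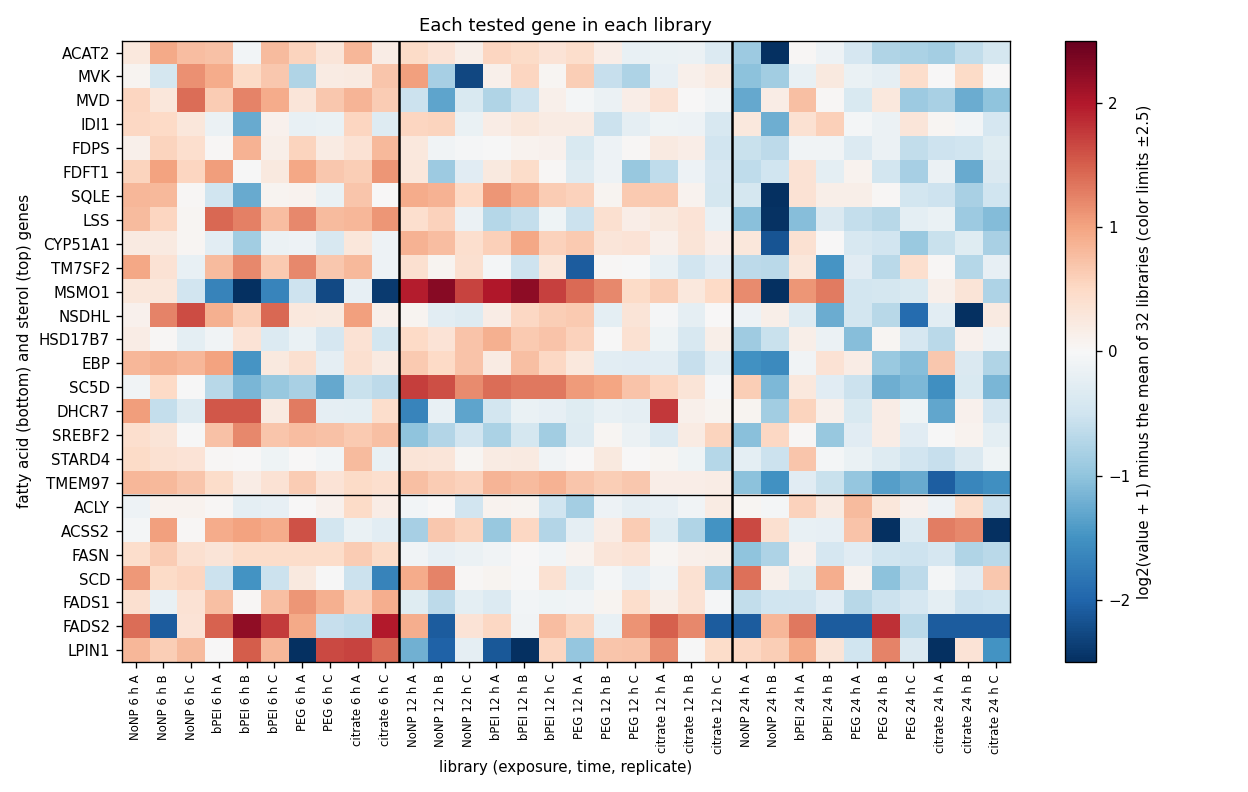
Log2(value + 1) of each of the 26 tested genes (rows; sterol branch above the line, fatty acid branch below) in each of the 32 libraries (columns, by time, exposure and replicate), minus the gene's mean over the 32 libraries, with colors limited to ±2.5. The 24 h columns are mostly blue in the sterol rows, the 12 h columns are red for MSMO1 and SC5D, and NoNP replicate B of 24 h is dark blue for ACAT2, SQLE, LSS, CYP51A1 and MSMO1.

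Each exposure was then compared between 24 and 6 h on its own, and these 4 comparisons share no library. In NoNP cells 10 sterol genes and 2 fatty acid genes were called lower and none higher, beside 10.8% of all tested genes called lower and 7.79% higher. In bPEI cells 3 sterol genes and 2 fatty acid genes were called lower and 1 sterol gene higher, beside 8.46% lower and 9.18% higher. In PEG cells 3 sterol and 2 fatty acid genes were called lower, beside 5.41% lower and 4.56% higher. In citrate cells 6 and 2 were, beside 6.21% lower and 5.51% higher. Leaving out bPEI replicate B of 24 h brought the bPEI count from 6 to 1, leaving out PEG replicate A of 6 h brought the PEG count from 5 to 3, and the NoNP count of 12 fell to 7 without NoNP replicate A or C of 6 h or replicate B of 24 h. The citrate count of 8 fell to 5 without citrate replicate A of 6 h and to 4 without replicate C.

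TMEM97, LSS, FASN and FADS1 were called lower in each of the 4 exposures, ACAT2 in 3, FDFT1, FDPS and MVD in 2, 5 other genes in 1, and 13 in none. TMEM97 read 853, 838 and 777 at 6 h and 234 and 167 at 24 h in NoNP cells, a difference of -2.05 (SE 0.20, adjusted p = 2.83e-09). In bPEI cells it read 661, 544 and 618 and then 396 and 328, a difference of -0.75 (SE 0.20, adjusted p = 0.0103). In PEG cells it read 741 and 606 and then 245, 183 and 201, and in citrate cells 667 and 645 and then 114, 154 and 165. The PEG difference was -1.68 (SE 0.20, adjusted p = 4.16e-07) and the citrate difference -2.19 (SE 0.20, adjusted p = 2.30e-09). No group of 24 h overlapped its own group of 6 h.

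FASN read 2513, 2863 and 2451 at 6 h and 929 and 1087 at 24 h in NoNP cells, and 2324, 2553 and 2550.3 and then 1988 and 1379 in bPEI cells. The differences were -1.37 (SE 0.17, adjusted p = 2.42e-07) and -0.58 (SE 0.17, adjusted p = 0.0176). For PEG and citrate they were -0.89 (adjusted p = 0.000490) and -1.17 (adjusted p = 9.75e-06). LSS fell by 2.22, 1.86, 1.51 and 1.69 in NoNP, bPEI, PEG and citrate cells, with adjusted p of 0.000119, 0.00179, 0.0131 and 0.00451. FADS1 fell by 0.75, 0.89, 1.56 and 1.17 in the same order. Several of these calls rested on 1 library. In bPEI cells TMEM97 and FASN lost theirs without replicate B of 24 h, LSS without replicate A of 24 h, and FADS1 without replicate A of 6 h or either library of 24 h. In NoNP cells the calls of FDFT1 and STARD4 were lost when any 1 library was left out, that of MVD without replicate A or C of 6 h or replicate A of 24 h, and that of FDPS without replicate B of 24 h. The MVD call was also lost with edgeR, with equal library totals and with the replicate block, and held in 5 of 13 alternative analyses, beside 6 of 13 for FDFT1 and 3 of 13 for STARD4. In NoNP cells FADS1 lost its call without replicate A or C of 6 h or either library of 24 h. LSS lost its PEG call without replicate A of 6 h, and LSS and FADS1 lost their citrate calls without replicate C of 6 h.

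ACAT2 was called lower in NoNP, PEG and citrate cells and not in bPEI cells. It read 489, 280.3 and 511 at 6 h and 300.4 and 269.8 at 24 h in bPEI cells, whose ranges overlapped, with a difference of -0.53 (SE 0.32, adjusted p = 0.253). In NoNP cells it read 355, 569 and 501 and then 156 and 50.02, a difference of -2.39 (SE 0.32, adjusted p = 1.01e-06). Its PEG call was lost without either library of 6 h or replicate B or C of 24 h, and its citrate call without replicate A of 6 h or of 24 h. EBP and SQLE were called lower in NoNP cells alone, which does not show that the exposures differ, since neither gene was called for the interaction of exposure and time. EBP read 189, 198 and 190.4 and then 36.9 and 34.8, a difference of -2.39 (SE 0.46, adjusted p = 0.000225). SQLE read 199, 196 and 114 and then 81.8 and 2.17, and its difference of -3.35 (SE 0.70, adjusted p = 0.00114) lost its call without replicate B of 24 h, in which it was at 1 read. CYP51A1, at 481, 476 and 424 and then 499 and 91.3, was called lower in the same comparison, at -1.10 (SE 0.37, adjusted p = 0.0334), and its difference turned to 0.12 without that library.

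The gene called higher in bPEI cells was MSMO1, at 82.1, 3.42 and 82.8 at 6 h and 565 and 643 at 24 h. The difference was 4.27 (SE 1.12, adjusted p = 0.0120), and it was no longer called without replicate B of 6 h, the library with the lowest MSMO1 of all 32, or without either library of 24 h. SREBF2 was called lower in bPEI cells, from 206, 284 and 200.4 to 126 and 63.2, at -1.34 (SE 0.35, adjusted p = 0.00860). In citrate cells MVD, FDPS and FDFT1 were also called, by 1.77, 1.03 and 1.45 lower, with adjusted p of 0.00860, 0.0107 and 0.0212. These calls were lost without replicate C of 6 h, those of MVD and FDFT1 also without replicate A of 6 h, and that of FDFT1 without replicate B of 24 h. The bPEI call of SREBF2 was lost without replicate B of 24 h.

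In NoNP cells the steps could be set apart. From 6 to 12 h 1 sterol gene was called higher and 2 lower, and 1 fatty acid gene lower, beside 4.89% of all tested genes called higher and 6.87% lower. SC5D went from 323, 485 and 339 to 1142, 1048 and 783, at 1.38 (SE 0.31, adjusted p = 0.00281). FASN went from 2513, 2863 and 2451 to 1737, 1601 and 1678, at -0.64 (SE 0.15, adjusted p = 0.00479). MVD went from 70.3, 58.2 and 128 to 32.5, 18.5 and 36.8, at -1.49 (SE 0.41, adjusted p = 0.0142), and SREBF2 from 165, 153 and 122 to 60.9, 73.5 and 88.4, at -0.98 (SE 0.32, adjusted p = 0.0400). The MVD call was lost without replicate C of 6 h or replicate B of 12 h, and the SREBF2 call in 7 of 14 alternative analyses.

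From 12 to 24 h in NoNP cells, 9 of 19 sterol genes and 1 of 7 fatty acid genes were called lower and none higher, beside 10.2% and 8.09% of all tested genes. TMEM97 went from 808, 748 and 719 to 234 and 167, at -1.93 (SE 0.20, adjusted p = 3.03e-08). ACAT2 went from 410.0, 373 and 325 to 156 and 50.02, at -2.04 (SE 0.32, adjusted p = 2.75e-05). EBP went from 168, 152 and 176 to 36.9 and 34.8, at -2.17 (SE 0.46, adjusted p = 0.000986), with the 24 h libraries close to each other. For SC5D, LSS and SQLE replicates A and B of 24 h lay far apart, at 525 and 157 for SC5D, 36.9 and 13.05 for LSS and 81.8 and 2.17 for SQLE, and their calls were lost without replicate B. The remaining 4 genes, CYP51A1, FASN, HSD17B7 and MSMO1, differed by -1.62, -0.73, -1.23 and -3.31. The calls of CYP51A1 and MSMO1 were also lost without replicate B, that of MSMO1 without any of the 12 h libraries, and that of HSD17B7 without replicate A. Without replicate B of 24 h the count was 5 in place of 10, and the lone library was then assumed to vary like the other groups.

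Against medium, the coatings changed few of these genes at 6 and 12 h. With bPEI at 6 h none of the 26 was called, beside 2.01% of all tested genes, and 6 had an unadjusted p under 0.05. edgeR called none. The smallest p belonged to SC5D, at 213, 154 and 178 beside 323, 485 and 339 in NoNP, with -1.06 (SE 0.31, adjusted p = 0.0600), and every bPEI library lay below every NoNP library. SCD read 17.5, 8.55 and 17.4 beside 56.2, 36.6 and 37.9, with -1.56 (SE 0.51, adjusted p = 0.0904), and MSMO1 read 82.1, 3.42 and 82.8 beside 321, 321 and 189, with -3.11 (SE 0.998, adjusted p = 0.0985). Leaving out bPEI replicate A gave 3 called members and leaving out replicate C gave 2.

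With PEG at 6 h none was called, beside 0.0215% of all tested genes, with 2 at an unadjusted p under 0.05 and none by edgeR. SC5D read 195 and 140.1, below all 3 NoNP libraries, with -1.18 (SE 0.35, adjusted p = 0.278), and FADS1 read 541 and 466 beside 329.8, 219.8 and 322, with 0.81 (SE 0.25, adjusted p = 0.357). Without the pair of libraries that stood apart SC5D was called lower (adjusted p = 0.0142). With citrate at 6 h none was called, beside 0.279%, with 3 at an unadjusted p under 0.05 and none by edgeR. SCD read 17.5 and 7.42, below all NoNP libraries, with -1.81 (SE 0.57, adjusted p = 0.191), and SC5D read 233 and 216, with -0.74 (SE 0.35, adjusted p = 0.426). In all 3 comparisons at 6 h the coated libraries of SC5D lay below the NoNP libraries, which the comparisons share.

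At 12 h none of the 26 was called with bPEI, beside 0.0965% of all tested genes, with 1 at an unadjusted p under 0.05 and none by edgeR. That gene was LSS, at 46.6, 50.7 and 71.5 beside 103, 116 and 69.1, with a difference of -0.75 (SE 0.36). With PEG none was called, beside 0.654%, with 2 at an unadjusted p under 0.05 and none by edgeR. They were FASN, at 1977, 2292 and 2389.7 beside 1737, 1601 and 1678, with 0.40 (SE 0.15, adjusted p = 0.278), and FADS1, at 236, 262 and 341 beside 202, 159 and 211, with 0.54 (SE 0.23, adjusted p = 0.358). Both PEG groups lay above NoNP without overlap.

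With citrate at 12 h 1 sterol gene was called lower and no fatty acid gene was called, beside 2.24% of all tested genes called lower and 3.88% higher. SC5D read 499.6, 431 and 336 in citrate cells and 1142, 1048 and 783 in NoNP cells, which did not overlap, and the difference was -1.23 (SE 0.31, adjusted p = 0.0146). The call was lost without NoNP replicate A or B, or citrate replicate B or C. The branch medians were -0.49 for the sterol genes and 0.26 for the fatty acid genes, beside -0.02 for all tested genes. MSMO1 read 402, 316 and 371 in citrate cells beside 1033, 1272 and 851 and was not called, with -1.52 (SE 0.998, adjusted p = 0.405). TMEM97 read 542, 541 and 549 beside 808, 748 and 719, also without overlap, with -0.48 (SE 0.18, adjusted p = 0.111). Without the pair of libraries that stood apart, which are not of 12 h but enter the shared spread, SC5D, MSMO1, EBP and TMEM97 were called lower and SREBF2 higher. Of the hepatocyte markers, 2 of 8, ALB and SERPINA1, were called lower and none higher in this comparison, and their part in it was not tested.

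At 24 h the comparison of bPEI with NoNP called 5 members, and the order of the coatings by such counts depended on the libraries kept. Without the pair of libraries that stood apart the counts were 2 for bPEI, 3 for PEG and 4 for citrate, and in fits of only the groups compared they were 0 for each. In the sterol branch 4 genes were called higher and in the fatty acid branch 1, with none lower, beside 3.05% of all tested genes called higher and 1.5% lower. The branch medians were 0.86 and 0.19, beside 0.10 for all tested genes, or 0.20 when libraries were scaled to equal totals. ACAT2 read 300.4 and 269.8 in bPEI cells and 156 and 50.02 in NoNP cells, at 1.68 (SE 0.35, adjusted p = 0.00347). TMEM97 read 396 and 328 in bPEI cells, against 234 and 167 in NoNP cells, at 0.86 (SE 0.22, adjusted p = 0.0201). FASN read 1988 and 1379 in bPEI cells, against 929 and 1087, at 0.72 (SE 0.19, adjusted p = 0.0207). In these 3 genes both bPEI libraries lay above both NoNP libraries, and below or among the libraries of 6 h.

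EBP and SQLE were the other called genes, and each had a limit. EBP read 99.6 and 137 in bPEI cells and 36.9 and 34.8 in NoNP cells, at 1.68 (SE 0.50, adjusted p = 0.0467), and edgeR gave an adjusted p of 0.0520. SQLE read 144 and 124 in bPEI cells, against 81.8 and 2.17 in NoNP cells, at 3.05 (SE 0.77, adjusted p = 0.0216), and edgeR gave 0.101. The lower NoNP value is 1 read, so this difference depends on the added 1. Without the pair of libraries that stood apart, which leaves 1 NoNP library at 24 h, FASN and EBP were called and ACAT2, TMEM97 and SQLE were not. Without NoNP replicate B alone, ACAT2, TMEM97, EBP and SQLE were not called. Without bPEI replicate A the calls of TMEM97, EBP, SQLE and FASN were lost, and without bPEI replicate B those of TMEM97, EBP and SQLE. The count of 5 was 1 without NoNP replicate B, 10 without NoNP replicate A, and 1 and 2 without bPEI replicates A and B. Of the hepatocyte markers, FGB was called higher than in NoNP at 24 h with bPEI, PEG and citrate, at 2.65, 1.46 and 1.35, and no other was called; its part in these results was not tested.

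With PEG at 24 h 1 sterol gene was called higher and none lower, beside 2.12% of all tested genes called higher and 0.708% lower. It was SQLE, at 124, 114 and 81.1 beside 81.8 and 2.17, with 2.70 (SE 0.70, adjusted p = 0.0345); the groups overlapped, edgeR gave an adjusted p of 0.241, and the call was lost without NoNP replicate B or any of the PEG libraries. Without the pair of libraries that stood apart, which leaves 1 NoNP library at 24 h, CYP51A1 differed by -0.89 and SC5D by -1.57. FASN of the fatty acid branch differed by 0.57 in that fit, and by 0.45 with all libraries. With citrate at 24 h 1 sterol gene was called higher and none lower, beside 2.8% of all tested genes called higher and 1.4% lower. It was ACAT2, at 162, 192 and 215 beside 156 and 50.02, with 1.08 (SE 0.32, adjusted p = 0.0472). The groups did not overlap, edgeR gave an adjusted p of 0.162, and the call was lost without NoNP replicate B or any of the citrate libraries. Without that pair 3 sterol genes were called lower, SC5D at -1.62, CYP51A1 at -0.84 and TMEM97 at -0.71, and 1 higher, EBP at 1.36. With all libraries CYP51A1 differed by 0.33 with PEG and 0.38 with citrate and was not called. SC5D differed by -0.70 and -0.76 with all libraries and was not called either. The sign thus turned without the pair for CYP51A1 and not for SC5D. For PEG the branch medians were 0.30 and 0.01, beside 0.05 for all tested genes, and for citrate 0.34 and -0.64, beside 0.04. The 3 comparisons with NoNP at 24 h share both NoNP libraries.

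**Figure D4:**
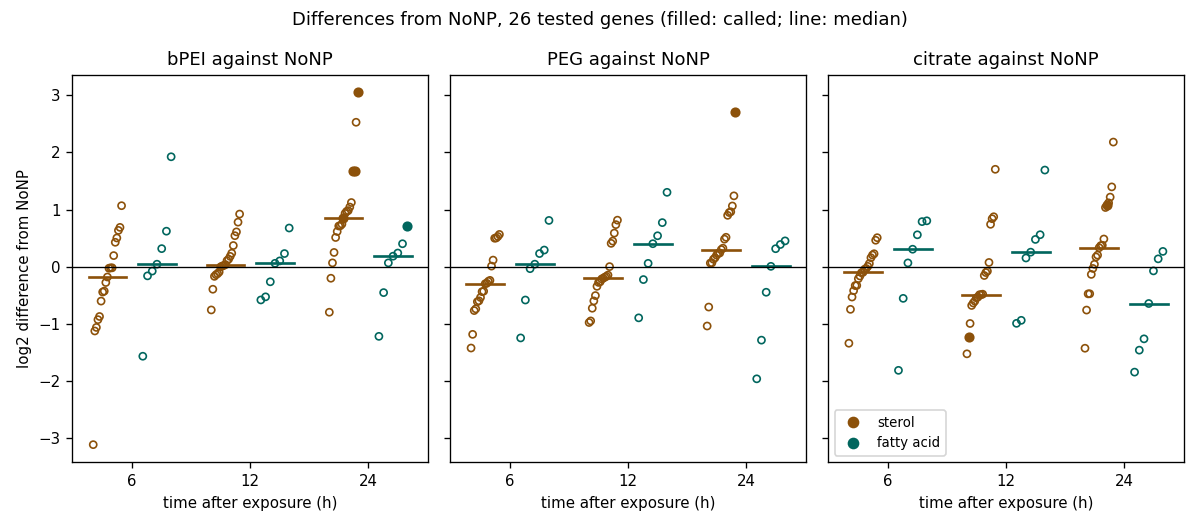
Log2 difference from NoNP (vertical axes) of the 26 tested genes for bPEI, PEG and citrate at 6, 12 and 24 h (horizontal axes), with sterol genes in brown and fatty acid genes in green, called genes filled and branch medians as lines. The filled points lie in the 24 h columns, 5 for bPEI, 1 for PEG and 1 for citrate, and at 12 h for citrate, where SC5D is at -1.23.

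The NoNP libraries of 24 h set the base of those comparisons, and they disagreed for part of the sterol branch. MSMO1 read 595 and 17.4 in replicates A and B, and CYP51A1 read 499 and 91.3. IDI1, which was called in no comparison, read 406 and 144. Replicate B was the lower one in each. The replicates were closer in TMEM97, at 234 and 167, in EBP, at 36.9 and 34.8, and in FDPS, at 120.3 and 113. In SREBF2 the order was the other way, at 59.4 and 176.

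Compared with each other, the coatings differed in 1 of the 26 genes at 24 h and in none at 6 and 12 h. The shares of all tested genes called were 0.15% at 24 h, 0.418% at 12 h and 0.107% at 6 h, and edgeR called no member at 6 and 12 h. The gene was TMEM97, at 396 and 328 with bPEI, 245, 183 and 201 with PEG and 114, 154 and 165 with citrate (F test over the 3 coatings, adjusted p = 0.00243). The 3 groups did not overlap, with bPEI highest and citrate lowest, and this comparison does not use the NoNP libraries. The call was lost without bPEI replicate A and in the fit of only the groups compared, with adjusted p up to 0.102. At 12 h TMEM97 had the smallest p of the members, at 865, 837 and 880.2 with bPEI, 778, 736 and 766 with PEG and 542, 541 and 549 with citrate, and an adjusted p of 0.135. At 6 h it was SCD, with an adjusted p of 0.953.

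Whether the course over time depended on the exposure was tested by the interaction of exposure and time. No member was called, beside 0.665% of all tested genes, by limma or by edgeR, and 9 had an unadjusted p under 0.05. TMEM97 came nearest, with an adjusted p of 0.0683, followed by EBP at 0.144, ACAT2 at 0.155 and SQLE at 0.190. The absence of calls depended on single libraries, since calls appeared without NoNP replicate A or B of 24 h and without bPEI replicate A of 6 h.

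Of 30 other genes of the pathway, 29 had a row and 23 were tested. Averaged over exposures, 6 were called higher and 10 lower at 24 h than at 6 h, beside 18.7% and 20.4% of all tested genes. The lower ones included FABP1, the liver fatty acid-binding protein, at -1.13 (SE 0.14, adjusted p = 3.48e-08), and MLXIPL, a carbohydrate-responsive regulator of lipid synthesis, at -1.17 (SE 0.21, adjusted p = 3.43e-05). The higher ones included NPC1, at 1.17 (SE 0.14, adjusted p = 4.27e-08), INSIG2, the second SCAP-retaining gene, at 1.18 (SE 0.15, adjusted p = 1.83e-07), and ABCA1, which exports cholesterol, at 0.71 (SE 0.15, adjusted p = 0.000341). INSIG2 had its rise in the earlier step, at 1.61 (SE 0.14, adjusted p = 2.15e-10), and then fell by 0.43 (SE 0.14).

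INSIG2 and FABP1 also differed between exposures. The interaction of exposure and time was called for FABP1 (adjusted p = 0.00563). INSIG2 at 12 h read 4692, 4983 and 3581 with NoNP, 2139.6, 2460.5 and 1593 with PEG and 1323, 1399 and 1963 with citrate. It was lower with PEG, at -1.11 (SE 0.27, adjusted p = 0.0459), and with citrate, at -1.51 (SE 0.27, adjusted p = 0.000994). In the comparison of bPEI with NoNP at 24 h, FABP1 and ACACB were among the genes of this list called higher, and none was called lower.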

How the data were processed

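HepG2 lysates went through TempO-Seq, according to the labels' protocols. Signal values in the deposited table are whole reads per gene divided by 1 factor per library: 100% of values were whole within a tolerance of 0.01 reads. Median-of-ratios factors recomputed from those reads differed from the deposited ones by at most 1.6e-13 percent. How reads were aligned, counted and joined into genes, and on which build, was not given in the sources used here.

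Because the values are not raw counts, the test for normalized signal was used. limma (3.58.1, in R 4.3.3) was fitted to log2(value + 1) with a mean for each of the 12 groups, an intensity trend and robust moderation, with 20 residual degrees of freedom. Genes with a mean of at least 5 were tested, and the Benjamini-Hochberg adjustment ran over all 9324 of them in each of 22 comparisons, with a threshold of 0.05. edgeR (4.0.16) quasi-likelihood tests on the recovered reads were an alternative. The others were a pseudocount of 5, no filter, a minimum mean of 20, scaling to equal library totals, the replicate letter as a block, only the groups compared, leaving out each library, and leaving out both libraries that stood apart. The fits were tested on simulated data.

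All 32 members were open to naming. Where over 6 were called, the 6 with the smallest p are given in full, and where none was, up to 3 are given. The members, the related genes and the alternatives were chosen with earlier results of these data known, so counts of the main fit are set beside the share of all tested genes called. Counts from the alternative analyses are given without that share and show only how the main counts moved. Promoter sequences are from RefSeq, and none of the table's coordinates enter a test. Some results on related genes are not reported here.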

Additional observations from a re-analysis of the deposited data

Results flagged for a closer look

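TMEM97 differed among the 3 coatings at 24 h (F test in limma, adjusted p = 0.00243), from 328 and 396 with bPEI to 114, 154 and 165 with citrate. That call was lost without bPEI replicate A of 24 h and in the fit of only the groups compared. CYP51A1, SQLE, TMEM97 and ACAT2 also had differences of opposite sign in groups that do not overlap. CYP51A1 at 24 h against 6 h differed by 0.624 on the log2 scale in bPEI cells and by -0.627 in citrate cells. SQLE in the same comparison differed by 0.82 with bPEI, by -0.962 with citrate and by -3.35 in NoNP cells, where 1 library was at 1 read. TMEM97 with bPEI against NoNP differed by -0.44 at 6 h, 0.184 at 12 h and 0.86 at 24 h. ACAT2 with citrate against NoNP differed by -0.542 at 12 h and 1.08 at 24 h. Of these differences, only those of SQLE in NoNP cells, TMEM97 with bPEI at 24 h and ACAT2 with citrate at 24 h were called. Groups of 2 or 3 libraries often lay apart without a call. With citrate against NoNP at 12 h, 11 of the 26 genes overlapped and 1 was called. The share of all tested genes without overlap was not counted. The pairs of differences of opposite sign were not tested against each other. The interaction of exposure and time over all groups, tested by limma, gave an adjusted p of 0.418 for CYP51A1, 0.190 for SQLE, 0.0683 for TMEM97 and 0.155 for ACAT2. The cause of these differences was not tested.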

How the results depend on the processing

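Counts of called members came from 22 comparisons, and 148 of 175 alternative counts lay within 1.5 times the main one. The averaged steps, with 12, 13 and 13 called members, stayed at 11 to 13, 10 to 14 and 12 to 15 when each library was left out. With edgeR the counts at 24 h against NoNP were 3 in place of 5 for bPEI and 0 in place of 1 for PEG and for citrate, and with equal library totals they were 4 for PEG and 3 for citrate. With a mean of at least 20 the interaction of exposure and time called 1 member in place of 0. In fits of only the groups compared, the counts against NoNP were 0 for bPEI, PEG and citrate at 24 h, 1 for PEG at 6 h and 3 for citrate at 12 h. In the same fits they were 7 for NoNP at 12 h against 6 h, 2 at 24 h against 12 h, 4 at 24 h against 6 h, 1 for bPEI at 24 h against 6 h and 3 for the differences among coatings at 12 h. Without both libraries that stood apart, the counts against NoNP were 2, 3 and 4 for bPEI, PEG and citrate at 24 h, 1 for PEG at 6 h and 5 for citrate at 12 h. They were 8 for NoNP at 12 h against 6 h, 6 at 24 h against 12 h, 8 for PEG at 24 h against 6 h and 2 for the differences among coatings at 12 h. The cause of these shifts was not tested, beyond the smaller number of libraries in them.

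Leaving out 1 library at a time gave 0 to 3 members for bPEI against NoNP at 6 h and 1 to 10 at 24 h, 0 to 5 for PEG at 24 h, 0 to 1 for citrate at 12 h and 0 to 5 at 24 h. It gave 2 to 4 for NoNP at 12 h against 6 h, 5 to 11 at 24 h against 12 h and 7 to 11 at 24 h against 6 h. For 24 h against 6 h it gave 1 to 7 with bPEI, 3 to 5 with PEG and 4 to 9 with citrate, and it gave 0 to 1 for the coatings at 24 h and 0 to 8 for the interaction. Of the 92 single calls, 1622 of 1819 alternatives kept the call, 195 lost it and 2 reversed the sign. Both reversals were CYP51A1 in NoNP at 24 h against 6 h, at 0.12 without NoNP replicate B of 24 h and also without both libraries, while leaving out single libraries otherwise gave -2.32 to -1.07.

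Whether replicate letters pair the samples is not in the labels and was not tested. Deviations from the group means were correlated between libraries of different groups at the same time. Same-letter libraries had a median of 0.047 (range -0.501 to 0.667), with 18 of 44 pairs over 0.1. Those of different letters had a median of -0.024 (range -0.629 to 0.711), with 23 of 84 pairs over 0.1. With the replicate block, bPEI against NoNP at 6 h had 1 called member in place of 0 and citrate against NoNP at 24 h had 2 in place of 1. Depth limits the low genes: the 6 members with means under 5 were not tested, and the SE for ACSS2, FADS2 and LPIN1 from 6 to 24 h was 0.53 to 0.65.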
